A study of Mus musculus with 24 samples.

Results

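The nuclear genes that encode subunits of the mitochondrial respiratory chain and ATP synthase were followed across the 7 groups of the study. Members were taken by symbol from the protein-coding genes of GENCODE M21: the Nduf a, b, c, s and v subunits of complex I with Ndufab1, Sdha to Sdhd of complex II, the Uqcr genes of complex III, the Cox4 to Cox8 genes of complex IV and the Atp5 genes of complex V. The rule matched 86 gene records, of which 85 were matched by Ensembl ID among the 51826 genes counted; a second record of Atp5o was not used here. They comprised 38 genes of complex I, 4 of complex II, 8 of complex III, 18 of complex IV and 17 of complex V. The rule also takes in some genes that carry a family name without being core parts of an enzyme, such as Atp5s, a factor coupled to ATP synthase. Complexes were assigned by symbol alone, so Ndufa4 and Ndufa4l2 stand under complex I for their name and not for a shown place in that enzyme.

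The respiratory chain passes electrons from NADH (complex I) and succinate (complex II) through ubiquinol and cytochrome c (complexes III and IV) to oxygen, and the proton gradient so built drives ATP synthase (complex V). Apart from complex II, each enzyme joins subunits made in the cytosol from nuclear genes with subunits made inside the mitochondrion. Neurons rely on oxidative phosphorylation for most of their ATP. CBP, encoded by Crebbp, is a transcriptional coactivator and acetyltransferase, and its KIX domain binds CREB and other activators. NRF1, the GA-binding protein, the estrogen-related receptors, YY1 and CREB are transcription factors known for sites in promoters of respiratory genes.

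The dorsal hippocampus of C57BL/6J mice aged 2 to 4 months was compared between WT animals and CBP KIX/KIX animals, which carry 3 point mutations in the KIX domain in every tissue. In RNA-Seq 1 (total RNA with ribosomal depletion), 3 WT homecage libraries were compared with 3 WT and 3 KIX libraries taken 1 h after the last of 3 days in the Morris water maze (MWM). In RNA-Seq 2 (polyA RNA), 3 WT homecage and 4 KIX homecage libraries were compared with 4 WT and 4 KIX libraries taken 1 h after contextual fear conditioning (CFC) with 1 foot shock. All 24 libraries are labelled male, whereas the study's methods say that mice of both sexes were used. The KIX homecage libraries are labelled as part of RNA-Seq 2, but their labels do not give the library selection. Because training paradigm, laboratory, kit and read length all change between RNA-Seq 1 and RNA-Seq 2, these cannot be told apart. The study counts its replicates as mice, and the labels name no animal, litter or cage.

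Total counts ran from 38174044 to 65709282 in RNA-Seq 1 and from 15385836 to 46056290 in RNA-Seq 2. A gene with no read in a library lies below 3 counts, which is at most 0.175 CPM (reads scaled to a common library size) in the shallowest one. Markers of neurons and of hippocampus were present in all 24 libraries, with summed levels of 7831 to 10944 CPM for 7 neuronal genes. Crebbp RNA did not pass the test between genotypes after learning (log2 fold change -0.015, SE 0.039, adjusted p = 0.894), and gene counts cannot show the point mutations. In KIX homecage replicate 3, 7 immediate-early genes summed to 1652 CPM against 147 to 222 CPM in the other 3 libraries of that group. The main results of the comparisons that use it are therefore given with and without it. The sum of 6 choroid plexus markers ranged from 28.9 to 4106 CPM over the 24 libraries.

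The promoters most directly tied to the design are those with a full cAMP response element (CRE), the palindrome TGACGTCA bound by CREB. RefSeq windows of 300 bases (250 before to 50 after a start site, GRCm38.p6) were found for 67 of the 85 genes, in 72 windows. A CRE stood in 5.56% of these windows against 2.23% of all 21263 windows, in Ndufa10, Ndufa11, Ndufb2 and Uqcrfs1. Those 4 stretches are shown 5′ to 3′ on the strand of the gene, ending before the start site, with the CRE in capitals: Ndufa10 at chr1:92473788-92473855 (minus strand, first CRE base at -67 from the start), Ndufa11 at chr17:56717574-56717641 (plus strand, -158), Ndufb2 at chr6:39592521-39592564 (plus strand, -14) and Uqcrfs1 at chr13:30545317-30545375 (minus strand, -29).
Ndufa10: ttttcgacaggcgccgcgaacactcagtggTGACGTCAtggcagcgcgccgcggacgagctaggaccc
Ndufa11: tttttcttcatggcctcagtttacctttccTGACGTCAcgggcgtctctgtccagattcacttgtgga
Ndufb2: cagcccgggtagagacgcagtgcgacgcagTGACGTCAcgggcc
Uqcrfs1: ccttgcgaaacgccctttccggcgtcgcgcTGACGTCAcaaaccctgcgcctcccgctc

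Other activator sites known from respiratory genes were searched on both strands, and matches of different motifs may overlap. The NRF1 motif, GCGCA and GCGC separated by 1 base, stood in the windows of 17 of the 67 genes, or 25.4% of genes against 7.17% of all 17492 genes with a window. The shares of windows for the ETS core CCGGAAG of GA-binding protein were 22.2% and 11.6%, those for the YY1 motif, AAGATG followed directly by GCGGC, 5.56% and 0.889%, and those for the receptor motif TCAAGGTCA 2.78% and 0.334%. The general promoter elements CCAAT (41.7% against 38.2%), TATAAA (11.1% against 12.6%) and the E-box CACGTG (8.33% against 7.84%) lay closer to the share of all windows. Examples of the NRF1 motif, in capitals, come from 2 subunits of complex II and from Atp5g2, whose RNA is described with the library types: Sdha at chr13:74350299-74350368 (minus strand), Sdhd at chr9:50603889-50603958 (minus strand) and Atp5g2 at chr15:102671050-102671119 (minus strand).
Sdha: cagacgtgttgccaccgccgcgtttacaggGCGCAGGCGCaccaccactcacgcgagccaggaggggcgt
Sdhd: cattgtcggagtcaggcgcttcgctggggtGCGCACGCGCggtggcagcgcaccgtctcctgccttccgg
Atp5g2: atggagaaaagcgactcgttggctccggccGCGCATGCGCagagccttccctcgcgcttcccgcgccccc

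These genes were among the most highly expressed of the hippocampus. In WT homecage RNA-Seq 2, the median member stood at the 96.5th percentile of 21793 protein-coding genes on a scale of level per length (TPM, counts divided by exon length and scaled to the same total in each library), 66 of 85 lay in the top 10%, and the median level was 192 TPM against 6.24 TPM for all protein-coding genes. In WT homecage RNA-Seq 1 the median member stood at the 93.6th percentile, 58 lay in the top 10%, and the median was 42.9 TPM. TPM values of all 84 detected members were lower in RNA-Seq 1, so levels of different genes are compared within an experiment.

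**Figure D1:**
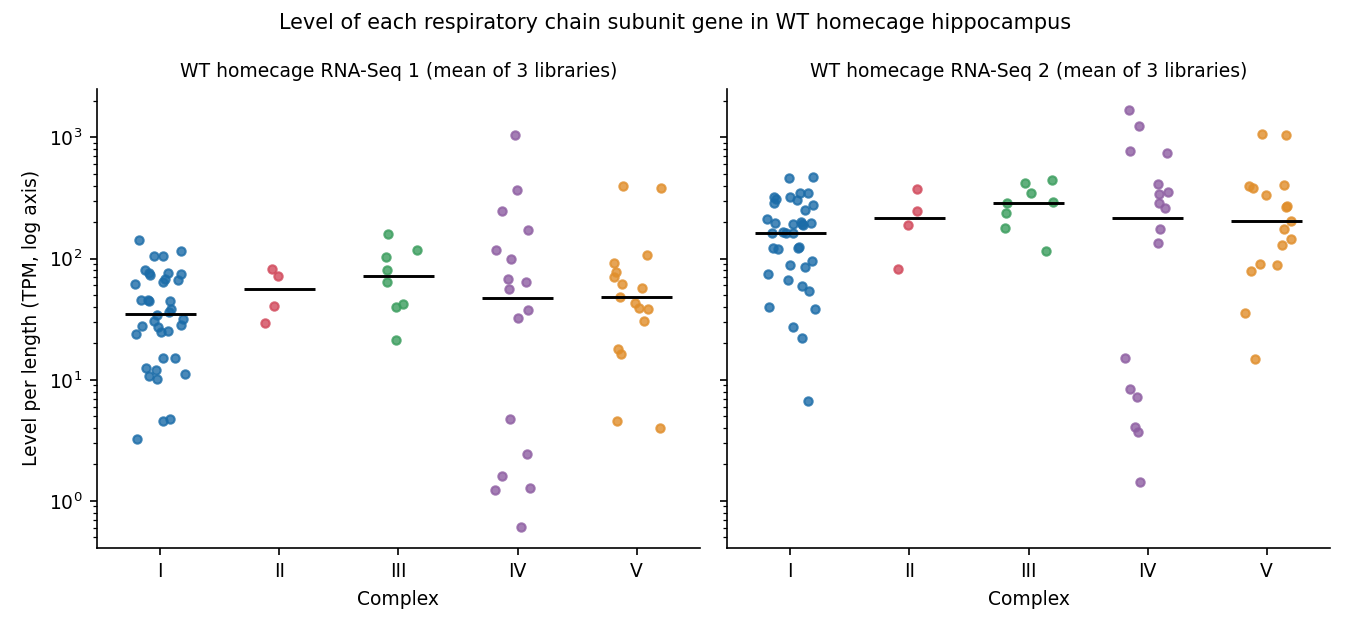
Mean level per length (TPM, log axis) of each subunit gene in the 3 WT homecage libraries of RNA-Seq 1 (left) and RNA-Seq 2 (right), by complex, with the median of each complex as a line. Cox8c, at 0, is not drawn. In RNA-Seq 2, 60 of 85 genes lie at 100 TPM or above, and the low points of complex IV are alternative isoform genes such as Cox4i2 and Cox8b.

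In WT homecage RNA-Seq 2, complex I was led by Ndufb9, an accessory subunit, at 475 TPM ± 27.9 (SD, n = 3). The lowest gene assigned to it by symbol was Ndufa4l2, at 6.73 TPM ± 1.10. In WT homecage RNA-Seq 1 the highest was Ndufv1, which binds NADH, at 144 TPM ± 20.1, above Ndufb9 at 105 TPM ± 25.6. In complex II the flavoprotein Sdha (374 TPM ± 4.12) was above the membrane anchor Sdhd (246 TPM ± 19.5), the iron-sulfur protein Sdhb (190 TPM ± 4.74) and the anchor Sdhc (82.2 TPM ± 1.98); neighbours in that order were further apart than their SDs. In RNA-Seq 1 Sdha (82.5 TPM ± 23.99) and Sdhd (72.0 TPM ± 9.17) did not differ beyond their spread, and Sdhc (40.7 TPM ± 5.58) was above Sdhb (29.5 TPM ± 7.96). The order of Sdhb depends on the gene length used: per longest transcript it was 272 TPM, above Sdhd at 194 TPM, in RNA-Seq 2, and 49.2 TPM, above Sdhc at 38.4 TPM, in RNA-Seq 1. In RNA-Seq 2 complex III ran from Uqcrq at 115 TPM ± 6.95 to Uqcr10 at 446 TPM ± 31.1, which did not differ from Uqcr11 (422 TPM ± 21.2) beyond their spread. Complex V ran from Atp5l at 14.96 TPM ± 1.93 to Atp5a1, the alpha subunit of the catalytic head, at 1076 TPM ± 14.6. The low value of Atp5l rests on an exon union of 6443 bases that includes a long annotated form, and 132 other genes hold a near-identical stretch, so its level is uncertain. Per exon union, complex IV held both extremes of all 85, from Cox8a at 1689 TPM ± 137 to Cox8c, which had no read in any of the 24 libraries. The top rank depends on the gene length used. Atp5b measured 1074 CPM and Cox8a 255 CPM in WT homecage RNA-Seq 2. Their exon unions span 4237 and 619 bases, and their longest transcripts 1916 and 550 bases. Per longest transcript Atp5b therefore stood above Cox8a (1499 TPM) and above Atp5a1 (995 TPM) in complex V.

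Several subunits of complex IV, and Ndufa4, exist as paired isoforms from separate genes, with one member widespread and the other best known from muscle, testis or lung. In every library the widespread gene made up nearly all of the pair's RNA per length. Across the 15 libraries of RNA-Seq 2, Cox4i1 was 99.2 to 99.8% of the Cox4i1 and Cox4i2 sum. Cox6a2, the heart and muscle form, was 0.645 to 1.76% of its pair, Cox6b2 0.538 to 2.26%, and Cox7b2 0.226 to 1.12%. Cox7a1 was 0.702 to 2.29% of a trio in which Cox7a2 (58.4 to 65.0%) and Cox7a2l (32.7 to 40.9%) were both high. Cox8a was 97.8 to 99.96% of the Cox8 genes, and the muscle form Cox8b reached 2.21% in 1 library. Ndufa4l2, a form of Ndufa4 known from hypoxia, was 0.948 to 1.98% of its pair in RNA-Seq 2 and 2.44 to 5.13% in RNA-Seq 1.

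The 3 genes for the c subunit of ATP synthase encode the same mature protein with different targeting peptides. Atp5g3 made up 67.3 to 70.8% of their RNA per length in RNA-Seq 2 and 46.3 to 49.7% in RNA-Seq 1. Atp5g2 made up 12.3 to 15.7% in RNA-Seq 2 and 27.9 to 31.1% in RNA-Seq 1, and Atp5g1 15.8 to 18.3% and 21.7 to 24.3%. The ranges of the experiments did not overlap for any of the 3 genes. Atp5g1 and Atp5g2 each have near-identical copies elsewhere, so part of their counts is uncertain. The shares also depend on the gene length used. The exon unions span 4912 (Atp5g1), 1675 (Atp5g2) and 2181 bases (Atp5g3), and the longest transcripts 4715, 753 and 862 bases. In WT homecage RNA-Seq 2 Atp5g1 measured 109 CPM and Atp5g2 32.2 CPM. There Atp5g2 stood below Atp5g1 per exon union and above it per longest transcript.

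**Figure D2:**
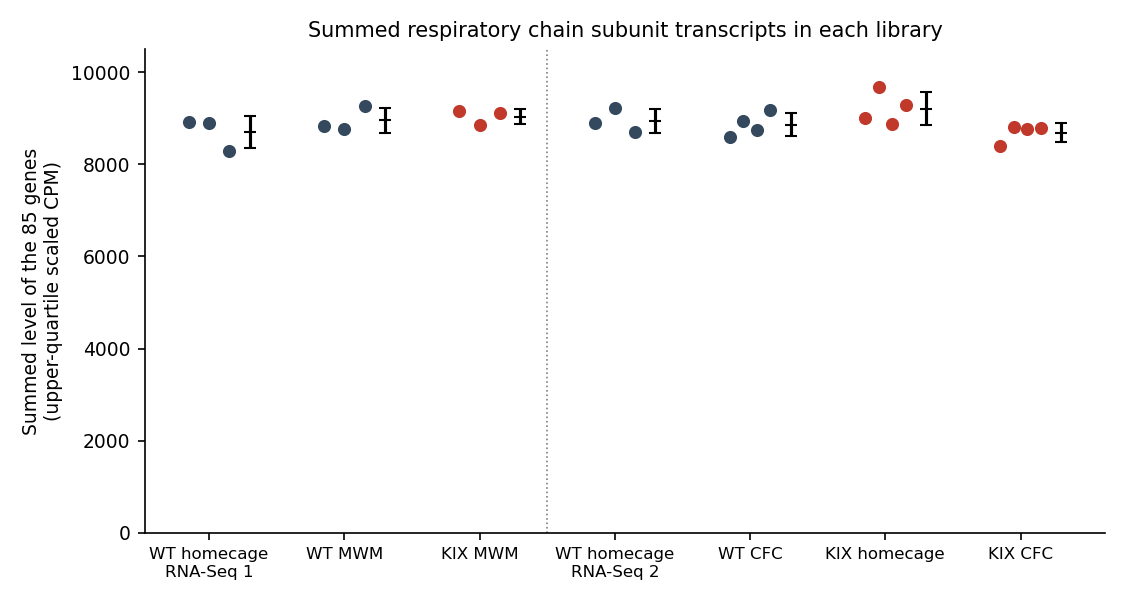
Summed level of the 85 genes in each of the 24 libraries (upper-quartile scaled CPM, axis from 0), WT in dark blue and KIX in red, with mean and SD to the right of each group; the dotted line separates RNA-Seq 1 from RNA-Seq 2. Every library lies between 8290 and 9690 CPM, and on this scale KIX homecage and KIX CFC are the groups compared that do not overlap, which differs with other scalings.

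Within each experiment the summed level of the subunit RNAs moved little with training or genotype. Their summed level was 8703 CPM ± 358 in WT homecage RNA-Seq 1, 8955 CPM ± 280 in WT MWM and 9035 CPM ± 166 in KIX MWM (SD, n = 3 each). In RNA-Seq 2 it was 8948 CPM ± 265 in WT homecage (n = 3), 8860 CPM ± 250 in WT CFC, 9211 CPM ± 363 in KIX homecage and 8691 CPM ± 199 in KIX CFC (n = 4 each). Of the groups set against each other, KIX homecage (8866 to 9690 CPM) and KIX CFC (8393 to 8810 CPM) did not overlap with this upper-quartile scaling, and the other pairs did. With TMM scaling WT homecage RNA-Seq 1 (7845 to 8437 CPM) and WT MWM (8641 to 9172 CPM) did not overlap either. Per library total, KIX homecage (9832 to 10756 CPM) and KIX CFC (9483 to 9910 CPM) overlapped. The level across experiments also depends on the scaling: per library total, without upper-quartile factors, the WT homecage sums were 6969 CPM in RNA-Seq 1 and 9996 CPM in RNA-Seq 2. Complex I gave 27.9 to 28.1% of the sum in the groups of RNA-Seq 2 and complex V 38.1 to 38.2%.

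The genes also varied little between replicates. The median SD of log2 CPM within groups was 0.089 over the 83 members with enough counts in all groups, 0.108 over the 6052 genes of the same range of level, and 0.164 over 18066 genes. Atp5a1 (0.041) and Sdha (0.046) had the lowest SDs among members, and Cox8b (1.31), Cox6b2 (0.58) and Cox7a1 (0.50) had the highest. Deviations from group means tended to run in parallel: the median correlation between 2 members over the 24 libraries was 0.32, with 81.2% of 3403 pairs positive, against 0.0022 for genes of the same range of level, 0.60 for cytosolic ribosomal proteins and 0.49 for the mitochondrially encoded subunits. These correlations share libraries and scaling and are given as a description.

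The first question was whether the KIX mutation changed these RNAs in trained animals, with MWM and CFC libraries fitted together. Subunit genes did not pass the test: with edgeR none of 84 members tested was called at adjusted p under 0.05, where 2.84% of all 21489 genes were called (1.18% higher and 1.66% lower). At an unadjusted p under 0.05, 8 members were higher and 3 lower in KIX, 11 of 84, against 18.2% of all genes (8.47% higher and 9.73% lower), and DESeq2 called 1 member, Ndufs4. The median log2 fold change of members was 0.014 (52 positive, 32 negative) against -0.0065 for all genes. Leaving out 1 library gave medians from -0.0048 (without WT MWM replicate 1, 39 of 84 positive) to 0.028 (without KIX CFC replicate 1). The fit of both experiments together bounded the change shared by them: the 95% interval lay inside ±0.2 (log2) for 76 members and inside ±0.5 for 79. The 5 members outside the wider bound were Cox4i2, Cox6b2, Cox7a1, Cox7b2 and Cox8b, all low isoform genes, and Cox8c was not tested.

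Ndufs4, a complex I subunit whose loss causes Leigh syndrome in people, had the lowest p. Its levels were 21.5, 25.3 and 28.03 CPM in WT MWM and 28.9, 32.2 and 27.0 CPM in KIX MWM. In WT CFC they were 45.9, 47.8, 46.1 and 49.7 CPM and in KIX CFC 46.5, 47.9, 48.5 and 52.0 CPM. The genotypes overlapped in both experiments, and the widest gap was between the lowest WT MWM and the highest KIX MWM library. The log2 fold change was 0.13 (SE 0.034, adjusted p = 0.0503), just short of the threshold. Without RUVr factors, which adjust for unwanted variation estimated from the residuals, it was 0.25 in the MWM libraries taken by themselves (adjusted p = 0.469) and 0.040 in the CFC libraries. Leaving out 1 library gave log2 fold changes from 0.082 (without WT MWM replicate 1) to 0.15, with an adjusted p under 0.05 in 7 of 14 fits: without WT MWM replicate 2 or 3, KIX MWM replicate 3, WT CFC replicate 2 or 4, or KIX CFC replicate 1 or 2. With GC-content normalization it was 0.084.

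Atp5d, the delta subunit of the ATP synthase stalk, had the lowest p among genes lower in KIX. It measured 165, 164 and 180 CPM in WT MWM against 164, 145 and 160 CPM in KIX MWM. In CFC the values were 129, 133, 116 and 119 CPM in WT and 123, 119, 116 and 114 CPM in KIX. The log2 fold change was -0.087 (SE 0.034, adjusted p = 0.183) and the genotypes overlapped in both experiments. Atp5d overlaps Cbarp on the opposite strand, and the strand setting of the counting is not given in the sources used here.

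The experiments fitted singly leaned in opposite directions by under 0.1 (log2). With only the MWM libraries 63 of 84 members were positive in KIX, with a median of 0.072, and with only the CFC libraries 14 of 83 were positive, with a median of -0.029. No member was called by edgeR in either one, where 0.0141% and 0.0057% of all genes were called. The test of the difference itself, the genotype by paradigm term, called no member and no gene (0% of 21489 genes). At an unadjusted p under 0.05 it gave 7 members, all lower, against 6.46% of all genes (3.01% higher and 3.46% lower), and DESeq2 called none. Atp5f1, the b subunit of the peripheral stalk, had the lowest p of that term. It measured 114, 129 and 131 CPM in WT MWM and 146, 144 and 138 CPM in KIX MWM, which did not overlap. In CFC it measured 190, 204, 204 and 214 CPM in WT and 192, 199, 204 and 200 CPM in KIX. The interaction was -0.24 (log2, SE 0.078, adjusted p = 0.755).

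None of the genes with a CRE in the window was called after learning or with training. In trained KIX against WT animals the log2 fold changes were 0.061 (SE 0.030) for Ndufa10, 0.017 (SE 0.038) for Ndufa11, 0.085 (SE 0.043) for Ndufb2 and 0.022 (SE 0.026) for Uqcrfs1, with adjusted p from 0.301 to 0.874. With training in WT the same genes gave -0.026 (SE 0.041), -0.0017 (SE 0.037), 0.017 (SE 0.048) and -0.0097 (SE 0.030).

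**Figure D3:**
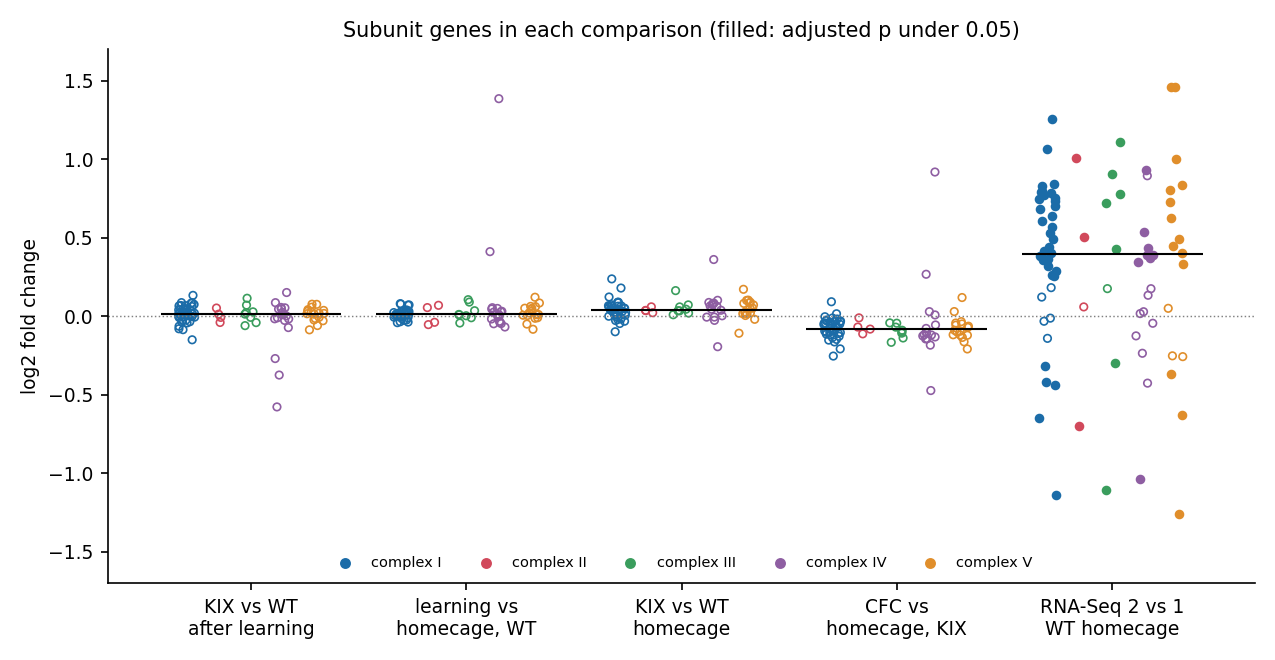
log2 fold change of every tested subunit gene in the 5 comparisons, coloured by complex; filled points have an adjusted p under 0.05, open points do not, and the line is the median of the members. Most points lie near 0 in the first 4 comparisons, with none filled and low complex IV genes such as Cox8b (1.39 with training in WT) farthest out, while 65 of 84 are filled between the library types.

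The second question was whether training itself changed these genes in WT animals. With edgeR none of 84 members was called, where 1.04% of 22038 genes were called (0.404% higher and 0.635% lower), and DESeq2 called none, giving no adjusted p for Cox8b. At an unadjusted p under 0.05, 4 members were higher and none lower, 4 of 84, against 17.3% of all genes (6.43% higher and 10.9% lower). Immediate-early genes, the transcripts first switched on by neuronal activity, were called higher in 7 of 7 cases in the same fit, with a median of 1.08 (log2). The median of members was 0.014 (59 positive, 25 negative) against -0.027 for all genes. Leaving out 1 library gave medians from -0.010 (without WT MWM replicate 3, 31 of 84 positive) to 0.035 (without WT homecage RNA-Seq 2 replicate 2). In the fit of both experiments together the 95% interval lay inside ±0.2 for 74 members and inside ±0.5 for all but Cox7b2 and Cox8b. Within experiments no member was called either, where 0.0139% of genes in RNA-Seq 1 and 0.116% in RNA-Seq 2 were called. The medians were 0.059 (MWM) and -0.018 (CFC). The 95% interval lay inside ±0.2 for 0 of 84 members with MWM and for 64 of 83 with CFC, so MWM by itself bounds no member that closely.

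Cox8b, the heart and muscle form of subunit 8 of cytochrome c oxidase, had the lowest p and the largest fold change. It gave 6, 11 and 28 reads in WT homecage RNA-Seq 1 and 20, 17 and 40 in WT MWM. In RNA-Seq 2 it gave 4, 41 and 1 reads in WT homecage and 6, 159, 21 and 13 in WT CFC. The groups overlapped in both experiments. The log2 fold change was 1.39 (SE 0.34, adjusted p = 0.0696); it was 0.84 without WT CFC replicate 2 and 1.97 without WT homecage RNA-Seq 2 replicate 2.

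Markers of the choroid plexus, the epithelium that secretes cerebrospinal fluid and borders the dissected tissue, moved with Cox8b. Their sum was 4106 CPM in WT CFC replicate 2, where Cox8b was highest at 3.22 CPM, and 3841 CPM in KIX CFC replicate 3, where Cox8b was 2.44 CPM. It was 28.9 and 32.1 CPM in WT homecage RNA-Seq 2 replicates 1 and 3, where Cox8b was lowest at 0.0967 and 0.0582 CPM. In the WT comparison 6 of 6 choroid markers were positive, with a median of 1.31 (log2), and 1 of the 6, Folr1, was called. By group the marker sum ran from 141 to 1777 CPM and 28.9 to 1646 CPM in WT homecage (RNA-Seq 1 and 2), 194 to 1750 CPM in WT MWM and 37.1 to 4106 CPM in WT CFC. Of the 6 markers Kcnj13 was below the level of 3 counts in 3 libraries (WT homecage RNA-Seq 2 replicates 1 and 3 and WT CFC replicate 1), and the other 5 were above it in every library. Cox6b2, the testis form of subunit 6b, was also highest in those libraries, at 4.31 and 4.24 CPM. The part of choroid plexus tissue in the Cox8b result was not tested, and in bulk tissue fewer cells of a type and less RNA per cell cannot be told apart.

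**Figure D4:**
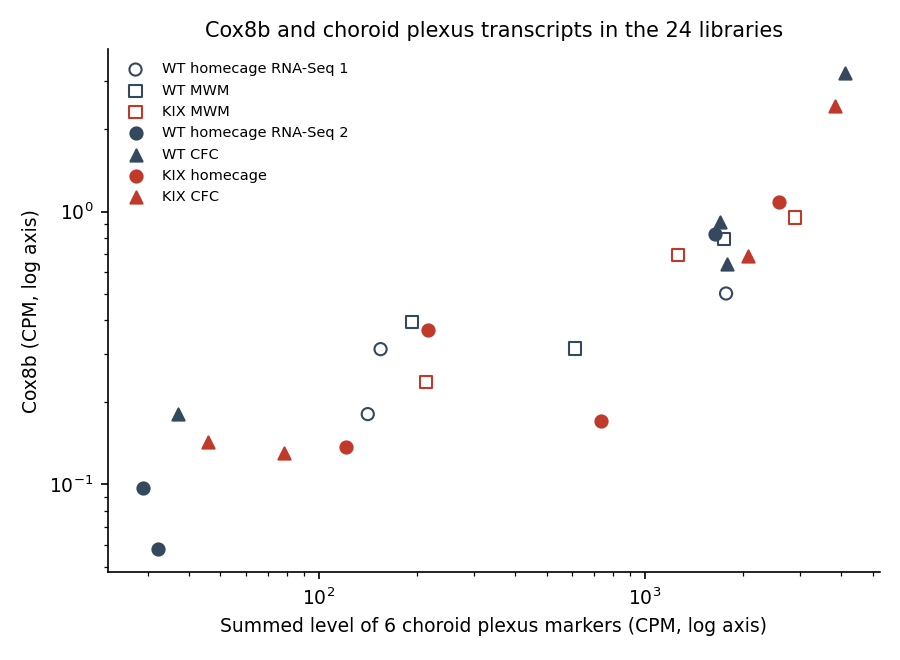
Cox8b (CPM, log axis) against the summed level of 6 choroid plexus markers (CPM, log axis) in the 24 libraries; colour gives genotype, shape the training, and open symbols are RNA-Seq 1. The 2 libraries with the highest marker sums, 4106 and 3841 CPM, have the highest Cox8b, 3.22 and 2.44 CPM.

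Atp5g2, a c-subunit gene, had the lowest p among members lower after training. Its levels were 88.1, 83.2 and 64.7 CPM in WT homecage RNA-Seq 1 against 66.4, 73.0 and 72.7 CPM in WT MWM. In RNA-Seq 2 they were 32.0, 36.8 and 27.8 CPM in homecage and 29.7, 33.3, 31.0 and 32.3 CPM after CFC. The groups overlapped in both, and the log2 fold change was -0.083 (SE 0.047, adjusted p = 0.387). The learning by paradigm term called no member with edgeR or DESeq2, where 0.0136% of genes were called, and 1 member passed an unadjusted p under 0.05, against 7.46% of all genes (5.82% higher and 1.65% lower). That member was Sdhb, the iron-sulfur subunit of complex II. Its interaction was -0.19 (log2, SE 0.086, adjusted p = 0.660): it measured 51.5, 51.4 and 54.5 CPM in homecage and 56.9, 57.6 and 62.5 CPM after MWM, which did not overlap, and 103, 107 and 101 CPM in homecage and 101, 104, 99.1 and 104 CPM after CFC, which did.

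The third question was the baseline difference between genotypes in the homecage. No member of 83 tested was called by edgeR or DESeq2, where 0.0107% of 18682 genes were called. At an unadjusted p under 0.05, 1 member was higher and none lower, against 6.12% of all genes (2.97% higher and 3.16% lower). The median of members was 0.042, with 69 positive and 14 negative, against -0.0023 for all genes. Leaving out 1 library gave medians from 0.0051 (without KIX homecage replicate 2) to 0.080 (without WT homecage RNA-Seq 2 replicate 2), and without KIX homecage replicate 3 the median was 0.062, with 75 of 82 positive and no member at an unadjusted p under 0.05, against 4.24% of all genes. The 95% interval lay inside ±0.2 for 35 members and inside ±0.5 for 77, so this comparison of 3 with 4 libraries bounds the change less closely. Without KIX homecage replicate 3 it lay inside ±0.2 for 16 of 82 members and inside ±0.5 for 77. In the same comparison the astrocyte gene Gfap had a log2 fold change of 1.32 (SE 0.42, adjusted p = 0.786), or 1.30 without KIX homecage replicate 3. Other astrocyte markers did not all follow Gfap. Gja1 measured 187 to 195 CPM in WT homecage and 181 to 200 CPM in KIX homecage, and Slc1a3 523 to 541 against 510 to 537 CPM. Aldoc (659 to 681 against 671 to 766 CPM) and Aqp4 (106 to 122 against 104 to 231 CPM) reached higher values in KIX. The groups overlapped for each astrocyte marker. The part of such differences between libraries in the subunit values was not tested.

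Ndufc2, a small membrane subunit of complex I, had the lowest p. It measured 58.0, 59.4 and 61.1 CPM in WT homecage and 60.5, 68.1, 70.2 and 82.6 CPM in KIX homecage. The groups overlapped only through KIX replicate 1, and the log2 fold change was 0.24 (SE 0.092, adjusted p = 0.798), the same to 2 decimals without KIX homecage replicate 3 and 0.16 without replicate 4. Atp5s had the lowest p among lower members, at 17.4, 17.3 and 17.9 CPM in WT and 16.8, 18.3, 16.1 and 13.4 CPM in KIX (log2 fold change -0.11, SE 0.11, adjusted p = 0.896). For Atp5s it was -0.10 without KIX homecage replicate 3, -0.18 without replicate 2 and -0.027 without replicate 4.

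The fourth comparison asked what CFC did in KIX animals, and it uses the same 4 KIX homecage libraries as the one before. Of 83 members none was called by edgeR or DESeq2, where 0.0113% of 17717 genes were called. Before adjustment 11 of 83 members were lower and none higher at p under 0.05, in a fit where 9.43% of all genes passed that level (4.2% higher and 5.23% lower). The median of members was -0.082, with 75 negative and 8 positive, against 0.0045 for all genes. By complex it was -0.069 (I), -0.076 (II), -0.094 (III), -0.11 (IV) and -0.090 (V), and without KIX homecage replicate 3 it was -0.084, -0.071, -0.11, -0.12 and -0.11 in the same order. Leaving out 1 library gave medians from -0.10 (without KIX homecage replicate 3) to -0.053 (without KIX homecage replicate 2). Without KIX homecage replicate 3, 16 of 84 members were lower and none higher at an unadjusted p under 0.05, against 6.4% of all genes, and none was called. Replicate numbers were also taken as a block, on the basis of correlations in the data, as the labels name no pairs. With this block the median was -0.087 and none was called. With that block 19 members were lower at an unadjusted p under 0.05, against 11% of all genes.

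Cox6b1, a subunit at the interface of the cytochrome c oxidase dimer, had the lowest p. It measured 132, 148, 131 and 136 CPM in KIX homecage and 119, 123, 117 and 122 CPM in KIX CFC, and the groups did not overlap. Its log2 fold change was -0.18 (SE 0.052, adjusted p = 0.491), or -0.20 (adjusted p = 0.732) without KIX homecage replicate 3. In WT animals Cox6b1 measured 127, 139 and 121 CPM in homecage and 129, 125, 121 and 126 CPM after CFC, which overlapped. Ndufb2, one of the genes with a CRE, had the lowest p among positive members, at 30.6, 28.1, 29.6 and 30.7 CPM in homecage and 29.9, 31.4, 33.1 and 32.5 CPM after CFC (log2 fold change 0.092, SE 0.056, adjusted p = 0.615, and 0.093 without KIX homecage replicate 3). Astrocyte markers were not uniform in the same comparison. Gfap had a log2 fold change of -1.56 (SE 0.38, adjusted p = 0.491), or -1.54 without KIX homecage replicate 3. It measured 304, 554, 800 and 1442 CPM in KIX homecage and 225, 312, 242 and 266 CPM in KIX CFC. Gja1 leaned the other way (181 to 200 against 197 to 204 CPM), and Aldoc was 671 to 766 against 630 to 676 CPM. The 6 astrocyte markers, with Gfap included, summed to 1886 to 3200 CPM in KIX homecage and 1743 to 1882 CPM in KIX CFC. The part of this difference in the subunit values was not tested.

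Whether CFC acted differently in the genotypes was tested by the genotype by training term. It called no member and no gene with edgeR (0% of 18851 genes), and DESeq2 called no member. At an unadjusted p under 0.05, 2 of 84 members were lower, against 4.79% of all genes (2.31% higher and 2.48% lower). The median of members was -0.069, with 76 negative, against 0.0094 for all genes; it was -0.090 without KIX homecage replicate 3, where 1 member and 3.52% of all genes passed that unadjusted level. Atp5mpl, a small membrane subunit of ATP synthase, had the lowest p. It measured 49.4, 56.5 and 49.9 CPM in WT homecage, 49.2, 54.1, 53.3 and 55.4 CPM in WT CFC, 50.8, 61.0, 57.8 and 65.1 CPM in KIX homecage and 47.0, 51.9, 51.6 and 52.4 CPM in KIX CFC. KIX homecage reached the highest values, although its replicate 1 lay among the rest, and the interaction was -0.23 (SE 0.10, adjusted p = 0.950), or -0.24 without KIX homecage replicate 3.

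The members differed most between the library types. In WT homecage animals, 53 of 84 members were higher and 12 lower in polyA RNA (RNA-Seq 2) than in ribosome-depleted total RNA (RNA-Seq 1). In the same fit 69% of 20602 genes were called, 31.7% higher and 37.2% lower, so what differed from the background was the split of directions. Among 15322 protein-coding genes tested, 36.3% were higher and 32.2% lower. The median of members was 0.40 (log2), against 0.085 for protein-coding genes and -0.034 for all genes. By complex 28 of 38 genes were higher in complex I, 2 of 4 in II, 5 of 8 in III, 7 of 17 in IV and 11 of 17 in V. The cytosolic ribosomal proteins, also short and abundant, gave 65 higher and 7 lower of 81, with a median of 0.69.

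Atp5j, coupling factor 6 of the peripheral stalk, was higher in RNA-Seq 2, at 105, 118 and 109 CPM against 41.1, 38.4 and 43.1 CPM (log2 fold change 1.46, SE 0.093, adjusted p = 3.0e-06). It overlaps Gabpa, a subunit of GA-binding protein, on the opposite strand. Ndufv2, a core iron-sulfur subunit of complex I, measured 103, 100.4 and 105 CPM against 46.3, 40.8 and 43.8 CPM (1.26, SE 0.087, adjusted p = 4.2e-06). Sdhb measured 103, 107 and 101 CPM against 51.5, 51.4 and 54.5 CPM (1.00, SE 0.082, adjusted p = 9.0e-06). For these 3 genes every RNA-Seq 2 library was above every RNA-Seq 1 library.

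In the opposite direction, Ndufv1, the subunit that binds NADH and flavin and works next to Ndufv2, measured 144, 137 and 129 CPM in RNA-Seq 2 against 315, 332 and 272 CPM in RNA-Seq 1 (log2 fold change -1.14, SE 0.11, adjusted p = 1.8e-05). Uqcrc1, a core protein of complex III, measured 187, 176 and 178 CPM against 395, 436 and 353 CPM (-1.11, SE 0.11, adjusted p = 2.1e-05). Atp5g2 measured 32.0, 36.8 and 27.8 CPM against 88.1, 83.2 and 64.7 CPM (-1.26, SE 0.14, adjusted p = 4.6e-05). For these 3 genes every RNA-Seq 2 library was below every RNA-Seq 1 library. With GC-content normalization these 3 remained called, at -0.57 (Ndufv1), -0.77 (Uqcrc1) and -0.45 (Atp5g2), Ndufv2 was 0.73, and the split of members was 56 higher and 9 lower.

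**Figure D5:**
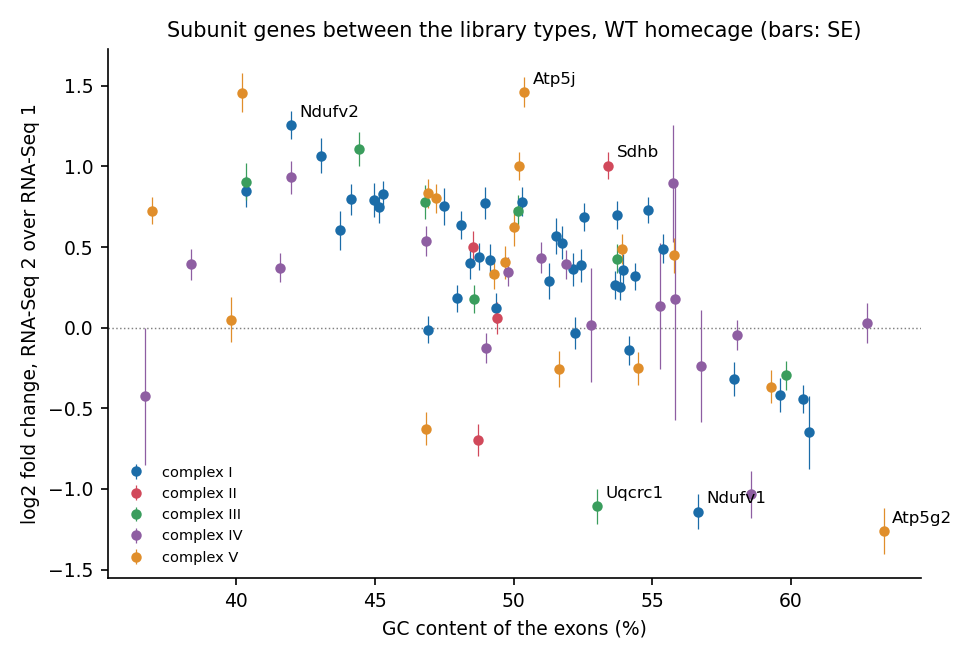
log2 fold change of RNA-Seq 2 over RNA-Seq 1 in WT homecage animals against the GC content (%) of the longest transcript, named exons on the axis. Each subunit gene is 1 point with its SE, coloured by complex. Values tend to be lower at higher GC, as in Ndufv2 (1.26) and Atp5g2 (-1.26), with a wide scatter at each GC content.

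Base composition moved with this difference. GC content was taken from the longest transcript of each gene. The 12 members lower in RNA-Seq 2 had a median GC content of 58.9%, the 53 higher ones 49.3% and the 19 not called 52.2%. Across the 84 members the correlation of fold change with GC content was -0.52. The same correlation over 15322 protein-coding genes was -0.42. With the length of the exon union it was 0.027 across members. Genes share the same 6 libraries in these correlations. Of the 12 lower members 4 overlap a gene on the opposite strand, as do 20 of the 53 higher ones.

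The partners of the subunits in the same pathways were counted in the same fits. After learning in KIX against WT, where 1.18% of all genes were called higher and 1.66% lower, 1 of 14 TCA cycle genes was called higher, Sucla2, a subunit of succinyl-CoA ligase (log2 fold change 0.097, SE 0.024, adjusted p = 0.0434). None was called among 18 complex I, 4 complex II, 6 complex III, 17 complex IV or 4 ATP synthase assembly factors tested, 11 genes of cytochrome c and ubiquinone synthesis, 7 core subunits of complex I, 13 mitochondrially encoded subunits or 17 regulators of mitochondrial gene transcription. In that last list Ppargc1b, a coactivator of respiratory gene transcription, had the lowest p (-0.26, SE 0.068, adjusted p = 0.0548). Of the cytosolic ribosomal proteins 5 of 81 were called higher, with a median of 0.072. With training in WT, in the homecage and with CFC in KIX, none of the listed pathway genes was called. The mitochondrially encoded subunits, which complete the same enzymes, had medians of 0.047 (KIX after learning), -0.088 (training in WT), 0.13 (KIX in the homecage) and -0.096 (CFC in KIX), with 11, 5, 13 and 0 of 13 positive; without KIX homecage replicate 3 the last 2 were 0.086 and -0.057, with 12 and 3 positive. Among the cell type lists, edgeR called 1 of 7 neuronal genes lower (Tubb3), 1 of 5 interneuron genes lower (Sst), 1 higher and 2 lower of 5 hippocampal genes and 1 higher and 2 lower of 6 astrocyte genes in KIX after learning, with none called of 6 oligodendrocyte, 6 microglial, 4 endothelial, 6 choroid plexus and 5 blood genes. Immediate-early genes were called lower in 5 of 7 cases there. All these calls of KIX after learning come from the fit with 4 RUVr factors, without which 4 genes in all were called. With training in WT, where 0.404% of all genes were called higher and 0.635% lower, 1 of 4 endothelial genes was called lower (Cldn5), and no cell type gene was called in the homecage or with CFC in KIX.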

How the data were processed

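Gene counts of 24 libraries were used as deposited; per the labels and the study's methods, the authors aligned reads with STAR to mm10 (GRCm38), used SAMtools 1.6, and made counts per gene with featureCounts 1.4.4, while strand setting and annotation release are not given in the sources used here. Total counts ran from 15385836 to 65709282. Counts were tested with edgeR 4.0.16 (R 4.3.3; quasi-likelihood test, upper-quartile scaling, filterByExpr, Benjamini-Hochberg over all genes tested, threshold 0.05), with the experiment as a batch term and 4 (genotype after learning) or 3 (training in WT) RUVr factors; the other comparisons had none. RUVr was rewritten from its description and its residuals are deviance residuals. SEs and 95% intervals were derived from the quasi-likelihood F. GENCODE M21 gave symbols, lengths and GC content; 51633 of 51826 gene IDs matched. Scripts were tested on simulated data. CPM used upper-quartile scaling over all libraries; TPM used the union of exons. Of the 85 members, 23 have a near-identical pseudogene copy (95% over at least 100 bases) and 30 overlap a gene on the opposite strand.

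Named genes were the 3 called members with the lowest p in each direction and comparison, or the 1 with the lowest p where none was called, the lowest p of each interaction, and, for levels, the extremes of each complex, complex II and the isoform sets. Members, lists and tests were chosen with earlier results of these data known. Cell type lists (neuron, interneuron, hippocampus, astrocyte, oligodendrocyte, microglia, endothelial, choroid plexus, blood) served as a check of the tissue. Replicate numbers were taken as a possible pairing for CFC in KIX, from the data and not from the labels. There the 4 same-numbered pairs deviated from their group means with correlations of 0.19 to 0.39, and 5 of 8 samples correlated best with their own number. In the other comparisons the lowest correlation was under 0.1. In every group of RNA-Seq 2, WT included, replicates 1 and 2 had higher total counts than replicate 3 and, where present, replicate 4. Replicate number and depth therefore go together there. Alternatives were TMM scaling, DESeq2 1.42.0, other filters, GC-content normalization, other numbers of factors, replicate blocks, single experiments and leaving out each library.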

Additional observations from a re-analysis of the deposited data

Results flagged for a closer look

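Among 69 groups of 4 libraries examined (23 values in 3 groups), 6 held a library that stood apart from its group by the ratio used. Chance gives about 1 in 20 for a single value. Here the values overlap, as sums include single genes, so the count cannot be set against that rate. The ratio also flags small gaps where the other 3 libraries lie close together. In KIX CFC replicate 1, the summed level of the 85 genes was 8393 CPM against 8772 to 8810 CPM in the other 3 libraries, that of complex V was 3210 CPM against 3345 to 3352 CPM, and Atp5mpl was 47.0 CPM against 51.6 to 52.4 CPM. Ndufs4 was 55.2 CPM in KIX homecage replicate 4 against 49.6 to 49.98 CPM in the others. Ndufv1 was 129 CPM in WT CFC replicate 4 against 134 to 135 CPM. The immediate-early genes summed to 1652 CPM in KIX homecage replicate 3 against 147 to 222 CPM in its group. Without KIX CFC replicate 1, the median log2 fold change of members for CFC in KIX was -0.061.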

How the results depend on the processing

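For genotype after learning, the count of called members was 0 in the reported fit (610 of 21489 genes called in all), 1 with DESeq2 (936 genes), 1 with at least 50 counts per library (748 of 16083 genes), 2 with 5 RUVr factors (885 genes) and 9 (7 higher, 2 lower) with the replicate block and 4 RUVr factors (2790 genes), and it was 0 under the other 8 settings. Leaving out 1 library gave 0 to 3 called members (684 to 1023 genes where any member was called): Ndufs4 in 7 of 14 fits, with Uqcrb in 3 of these and Atp5d in 1. For training in WT the count was 0 in the reported fit (229 of 22038 genes), 1 (Cox8b) with the replicate block and 3 RUVr factors (929 genes) and 0 to 3 when 1 library was left out: 3 (Cox8b, Atp5g2, Uqcrc2) without WT homecage RNA-Seq 1 replicate 3 (2277 genes), 1 (Cox8b) without WT CFC replicate 1 (458 genes), and 0 otherwise. Atp5g2 turned to 0.0019 with GC-content normalization in that comparison. The cause of these shifts was not tested. Between the library types the count was 60 to 70 under the other settings and 58 to 69 when 1 library was left out. In genotype in homecage, CFC in KIX and the 3 interactions the count was 0 under every alternative run, and the replicate block changed no call there. In training in WT each of 12 samples correlated best with its own number, a hint of pairing from the data and not from the design.

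Without RUVr factors the number of genes called in all was 4 for genotype and 9 for training in WT, and DESeq2 called 818 in the latter. Of 297 repeats of named-gene fold changes 278 kept direction and side of the threshold, 18 passed it in the same direction and 1 turned. Low counts limit Cox8b, Cox7b2 and Cox4i2.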
